A study of Mus musculus with 23 samples.

Results

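The ancient L1 subfamilies of the mouse genome, old families of the L1 retrotransposon, were taken by name, as every row of family L1 whose name begins with L1M and a capital letter or digit, with L1P or with HAL1. They numbered 91 of the 1135 repeat subfamilies in the table and 91 of its 133 L1 subfamilies. By name, 27 were L1ME, 24 were L1M followed by a digit, 11 L1MC, 9 L1MA, 7 L1MB, 6 L1MD, 5 HAL1 and 2 L1P. The young mouse L1Md subfamilies (6) and the rodent Lx and other L1 subfamilies (36) were left outside.

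L1 elements are retrotransposons without long terminal repeats that copy themselves through an RNA intermediate, using a reverse transcriptase and an RNA-binding protein of their own. The subfamilies described here stopped copying long ago: L1M names mark families shared among mammals, with the letters A to E running from the younger to the older, L1P is a prefix first used for primate families, and HAL1 is an L1 relative that kept the RNA-binding protein frame without the reverse transcriptase. Their copies in the mouse genome are old, diverged fragments that lie mostly between and within genes, so reads from them can come from other transcripts that contain them as well as from the elements. Which of these sources gave the reads was not tested.

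The data were RNA sequencing libraries, stranded and made from poly(A) RNA of whole spinal cord lysate. PS19 mice carry a transgene for mutant human tau, used as a model of tauopathy, and were heterozygous; the controls were wild-type littermates without it. There were 7 PS19 and 6 control samples at 9 months, and 5 PS19 and 5 control samples at 4 months. The labels give no sex or batch and do not say that each sample came from a different animal, so the p-values measure the spread between these samples, which may be technical. The table lists no genes, so the tau transgene and markers of spinal cord cells were not analysed here. In lysate of whole tissue, fewer cells of a type and less RNA per cell cannot be told apart.

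Values are normalized reads, that is, reads of a subfamily divided by a size factor of the sample. They are not corrected for the length or number of genomic copies of a subfamily, so a share of the signal is not a level per copy. At 9 months a sample held 338090 to 590194 repeat reads, of which 20556 to 35223 fell in ancient L1 subfamilies. At 4 months it held 529522 to 2168280, of which 18462 to 130401 did so. The 4-month samples stood apart in sets that followed their sample numbers: a lower-numbered set of 6 (replicates 1 to 3 of both genotypes, up to number 260) and a higher-numbered set of 4 (replicates 4 and 5 of both). All 84 tested ancient L1 subfamilies were higher in every sample of the lower-numbered set than in every sample of the higher-numbered one, as were 91.6 percent of all 920 repeat subfamilies tested. The median difference was 2.21 on the log2 scale for the ancient L1 subfamilies and 1.93 for all. Results that compare ages are therefore given with all 4-month samples and with the higher-numbered set alone, and also after TMM scaling, which sets the repeat subfamilies of each sample to a common level.

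Of the 91 subfamilies, 84 had a mean of at least 10 normalized reads over the 23 samples and were tested. The 7 below that mean averaged from 0.935 to 9.76 normalized reads and were L1M2a1, L1M2b, L1M3a, L1M3b, L1M6B, HAL1_SS and L1P5. L1M2a1 and L1M2b had 0 reads at 9 months among 5639045 repeat reads, which allows up to 0.532 RPM of repeat reads by a limit of 3 counts (counting error only), against 20 and 63 reads at 4 months. All 91 had reads in at least 1 sample, and 73 had reads in every sample.

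**Figure D1:**
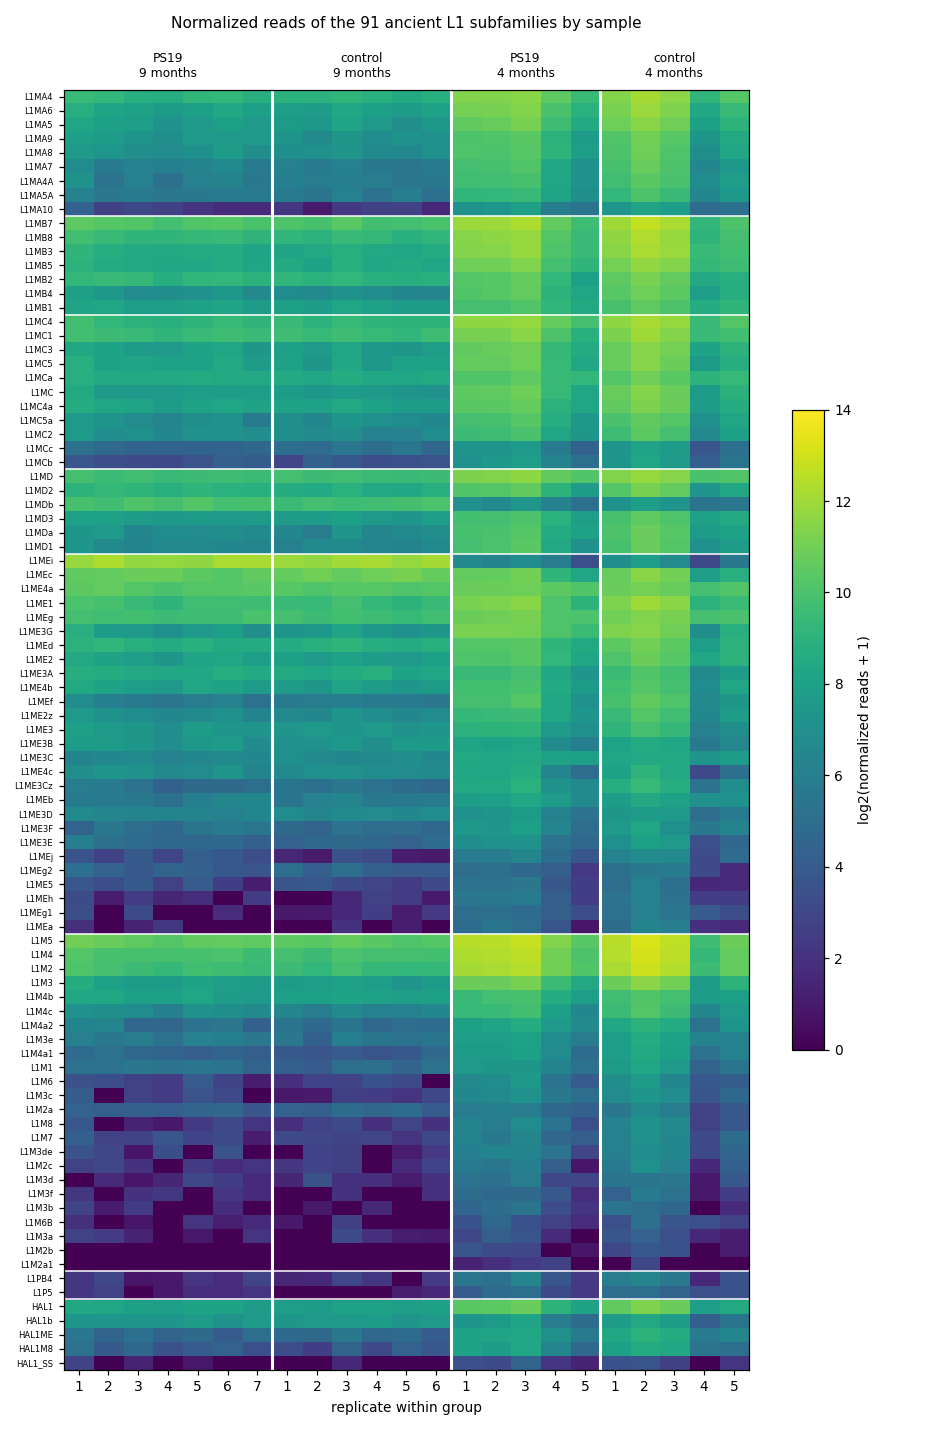
Heat map of log2(normalized reads + 1) for the 91 ancient L1 subfamilies (rows, by name group) in the 23 samples (columns, by group). Most rows are brighter (higher) in 4-month replicates 1 to 3 than elsewhere, while L1MEi and L1MDb stand out in the 9-month samples.

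The summed ancient L1 signal made up a similar share of all repeat signal in every group but a much larger share of L1 signal at 9 months. It averaged 6.02% ± 0.21 of repeat signal in PS19 (SD, n = 7) and 6.18% ± 0.16 in control samples (n = 6) at 9 months, against 5.497% ± 0.44 in PS19 and 5.11% ± 1.04 in control samples at 4 months (n = 5 each). Of the signal of all L1 subfamilies it was 48.0% ± 2.26 in the 13 samples of 9 months, with a range of 44.1% to 51.2%, and 29.9% ± 1.51 in the 10 samples of 4 months, with a range of 26.3% to 31.1%. The ages did not overlap in this share, which was 30.6% in the lower-numbered 4-month set and 28.8% in the higher-numbered one. Without the L1MEi and L1MDb subfamilies described next it was 42.7% ± 1.92 at 9 months and 29.8% ± 1.51 at 4 months. The share of L1 signal can differ through either part: rodent Lx and other L1 subfamilies were 4.59% ± 0.50 of repeat signal at 9 months and 9.06% ± 1.38 at 4 months, and L1Md subfamilies 2.04% ± 0.24 and 3.32% ± 0.23.

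L1MEi, a member of the oldest name group, rose most among the ancient L1 subfamilies at 9 months. PS19 samples of 9 months had 3265 to 4979 normalized reads of L1MEi with a median of 3676, and control samples 3341 to 4575 with a median of 4042. PS19 samples of 4 months had 96.0, 77.1, 111, 56.7 and 9.75 normalized reads, and control samples 124, 218, 106, 7.67 and 48.4. Every 9-month sample lay far above every 4-month sample, including those of either set, and the ratio of the mean at 9 months to that at 4 months was 47.0. The log2 difference of 9 against 4 months was 6.16 (SE 0.54, adjusted p = 3.48e-10) in PS19 and 5.92 (SE 0.56, adjusted p = 2.16e-09) in control samples. It was the 3rd highest of the 920 subfamilies in both genotypes. With only the higher-numbered 4-month set it was 7.32 in PS19 and 7.59 in control samples, and after TMM scaling 7.95 and 7.99. L1MEi was read 3273 to 4825 times per sample at 9 months and 8 to 192 times at 4 months, so its values at 4 months rest on few reads.

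L1MDb, a name of the next oldest group, also rose and did not overlap between ages. It had 841 to 1232 normalized reads in PS19 (median 958) and 736 to 1049.7 in control samples (median 872) at 9 months. At 4 months it had 135, 103, 169.7, 72.6 and 34.1 in PS19 and 148, 219, 149.8, 41.2 and 47.2 in control samples. The log2 difference was 3.44 (SE 0.38, adjusted p = 6.43e-08) in PS19 and 3.13 (SE 0.40, adjusted p = 3.94e-07) in control samples, and 4.28 in both with the higher-numbered 4-month set. L1MEi and L1MDb were the 2 ancient L1 subfamilies with all 9-month samples above all 4-month samples, where 3.26 percent of all tested subfamilies were, and the 2 called higher in both genotypes, where 5.43 percent of all were.

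L1MEi therefore headed the ancient L1 signal at 9 months and was near the end of it at 4 months. It ranked 1st of the 91 at 9 months in both genotypes, with 15.5% ± 2.17 of the ancient L1 signal (n = 13), and 70th in PS19 and 68th in control samples at 4 months, with 0.106% ± 0.0405 (n = 10). Of all repeat signal it was 0.905% ± 0.166 in PS19 and 0.996% ± 0.123 in control samples at 9 months, against 0.00533% ± 0.0020 in PS19 and 0.00623% ± 0.0029 in control samples at 4 months. L1MDb held 3.66% ± 0.66 of the ancient L1 signal at 9 months and 0.159% ± 0.030 at 4 months. At 4 months L1M5, L1M4 and L1M2 headed the signal in both genotypes, L1M5 with 6.44% in PS19 and 6.11% in control samples.

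**Figure D2:**
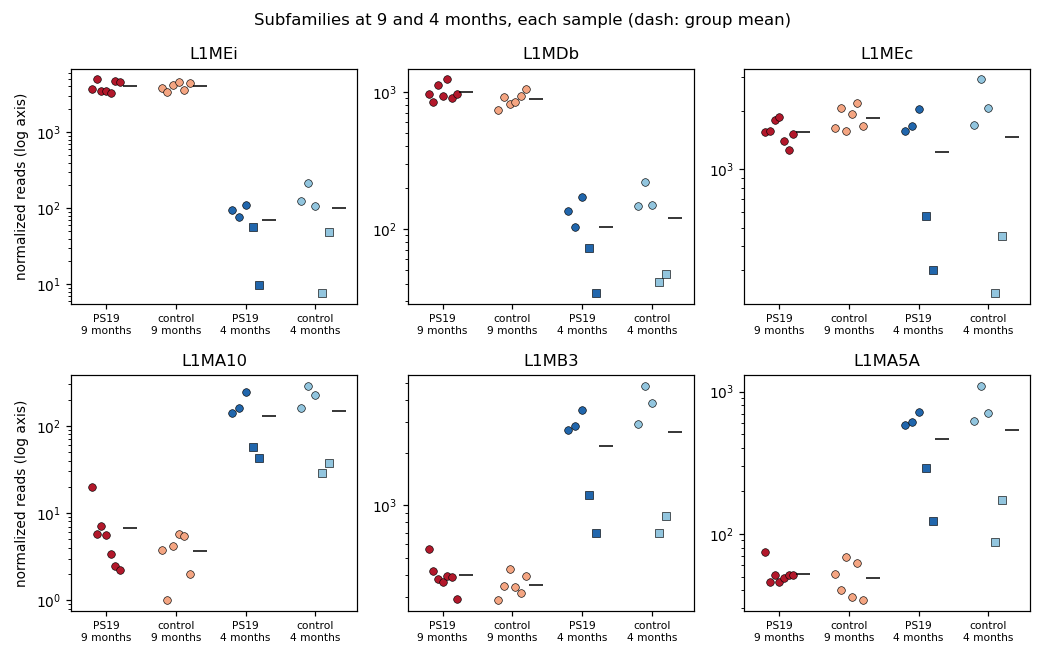
Normalized reads (log axis) of 6 ancient L1 subfamilies in each sample by group, with a dash at the group mean; circles are 9-month samples and 4-month replicates 1 to 3, squares 4-month replicates 4 and 5. L1MEi and L1MDb lie higher in all 9-month samples than in any 4-month sample, while L1MA10, L1MB3 and L1MA5A lie lower.

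L1MEc, another L1ME subfamily with a high signal, depended on the 4-month set in the deposited scaling. At 9 months it had 1258 to 1855 normalized reads in PS19 (median 1553) and 1584 to 2199 in control samples (median 1808). At 4 months it had 1585, 1666, 2042, 571 and 303 in PS19 and 1704, 2925, 2069, 229 and 453 in control samples, so the 9-month samples overlapped the lower-numbered 4-month set and lay above the other. With all samples the log2 difference was 0.66 (SE 0.48, adjusted p = 0.203) in PS19 and 0.86 (SE 0.50, adjusted p = 0.107) in control samples. With the higher-numbered set it was 1.90 (adjusted p = 7.33e-08) and 2.51 (adjusted p = 2.15e-10), and with the lower-numbered set -0.17 and -0.24. The log2 difference after TMM scaling was 2.46 in PS19 and 2.94 in control samples. L1MEc was then called higher in both genotypes, where 30 percent of all subfamilies were. Every 9-month sample then lay above every 4-month sample, as in 22.4 percent of all.

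Most other ancient L1 subfamilies were lower at 9 months in the deposited scaling, as most repeats were. Of the 84 tested, 70 were called lower and 2 higher in PS19, against 77 and 6.09 percent of all 920 subfamilies. In control samples 70 were called lower and 2 higher, against 79.3 and 6.09 percent of all. The median log2 difference was -1.83 for the ancient L1 subfamilies and -1.83 for all in PS19, and -2.05 and -2.14 in control samples. The shares called lower in the ancient L1 subfamilies were near those of all repeats. With the higher-numbered 4-month set, 44 were called lower and 9 higher in PS19 (50.2 and 14 percent of all), and 37 lower and 13 higher in control samples (50.2 and 16.3 percent of all). After TMM scaling, which raised the median of all subfamilies to -0.06 in PS19 and -0.10 in control samples, 28 were called lower and 26 higher in PS19 (28.2 and 32.3 percent of all), and 24 lower and 29 higher in control samples (30 and 32.7 percent). Whether the ages were prepared, counted and scaled together is not given in the sources used here, so age cannot be told apart from such a difference.

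L1MA10, from the youngest name group, had the lowest log2 difference of the tested ancient L1 subfamilies, on the log2(value + 1) scale, and was called lower. At 9 months it had 2.19 to 20.1 normalized reads in PS19 (median 5.61) and 1.004 to 5.69 in control samples (median 3.96). At 4 months it had 142, 159.7, 248, 57.9 and 42.3 in PS19 and 160.4, 286, 229, 28.8 and 37.8 in control samples, all above every 9-month sample. The log2 difference was -4.11 (SE 0.59, adjusted p = 4.45e-06) in PS19 and -4.59 (SE 0.61, adjusted p = 6.88e-07) in control samples, the lowest of all 920 subfamilies in PS19 and the 2nd lowest in control samples. It was -3.02 and -2.98 with the higher-numbered 4-month set, and -2.44 and -2.71 after TMM scaling.

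L1MB3 and L1MA5A also lay below every 4-month sample at 9 months. L1MB3 had 293 to 567.9 normalized reads in PS19 (median 389) and 289 to 433 in control samples (median 346) at 9 months. At 4 months it had 2686, 2835, 3483, 1143 and 697 in PS19 and 2896, 4779, 3834, 695 and 869 in control samples. Its log2 difference was -2.22 (SE 0.42, adjusted p = 5.36e-05) in PS19 and -2.51 (SE 0.44, adjusted p = 1.23e-05) in control samples, and -0.41 and -0.42 after TMM scaling. L1MB3 was thus close to the shift of all repeats in the deposited scaling, and lower by a small amount, still called, after TMM scaling.

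L1MA5A had 45.6 to 74.1 normalized reads in PS19 (median 51.0) and 34.3 to 69.2 in control samples (median 46.2) at 9 months. At 4 months it had 586, 608, 718, 292 and 123 in PS19 and 626, 1094, 708, 88.2 and 173 in control samples. The lowest 4-month value was above the highest 9-month value. The log2 difference was -2.89 (SE 0.48, adjusted p = 1.73e-05) in PS19 and -2.96 (SE 0.50, adjusted p = 9.04e-06) in control samples.

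In all, 11 ancient L1 subfamilies lay lower in every 9-month than in every 4-month sample, where 27.1 percent of all tested subfamilies did. They were L1MA10, L1MA5A, L1MB1, L1MB3, L1MB5, L1MCa, L1MD, L1MDa, L1MEb, L1ME3C and HAL1ME, and the ratio of their means at 9 months to those at 4 months ran from 0.0380 in L1MA10 to 0.357 in L1MD. Against the lower-numbered 4-month set alone 79 lay lower (86.1 percent of all). After TMM scaling 2 lay lower and 20 higher (6.3 and 22.4 percent of all). Called lower in both genotypes under both scalings, and with either all 4-month samples or the higher-numbered set, were 3 subfamilies, L1MA10, L1MB3 and L1MB4, where 7.83 percent of all were. Called higher under the same 4 settings were L1MEi and L1MDb, where 5.43 percent of all were.

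The name groups differed in how far they were lower. The L1MA group had the lowest median of the groups with at least 2 tested subfamilies, -2.40 in PS19 and -2.53 in control samples, and all 9 of its subfamilies were called lower in both genotypes, as were 76.1 percent of all 920 subfamilies. L1ME had the least negative, -1.34 in PS19 and -1.30 in control samples, with 17 of 27 called lower and 1, L1MEi, called higher in both. Between them stood L1M with a digit (-2.35 in PS19 and -2.40 in control samples), HAL1 (-2.21 and -2.37), L1MC (-1.89 and -2.01), L1MB (-1.58 and -1.78) and L1MD (-1.47 and -1.55). After TMM scaling L1MA4A, L1MA5, L1MA5A, L1MA6, L1MA7 and L1MA10 were called lower in both genotypes, as were 22.4 percent of all subfamilies. No L1MA subfamily was then called higher in both, where 30 percent of all were. Of 27 L1ME subfamilies 13 were called higher and 5 lower in PS19 (32.3 and 28.2 percent of all). In control samples 15 were called higher and 4 lower (32.7 and 30 percent of all). The L1MA median was then -0.60 in PS19 and -0.45 in control samples, and the L1ME median 0.43 and 0.77. No test was made between name groups, whose subfamilies share sequence and can share reads.

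**Figure D3:**
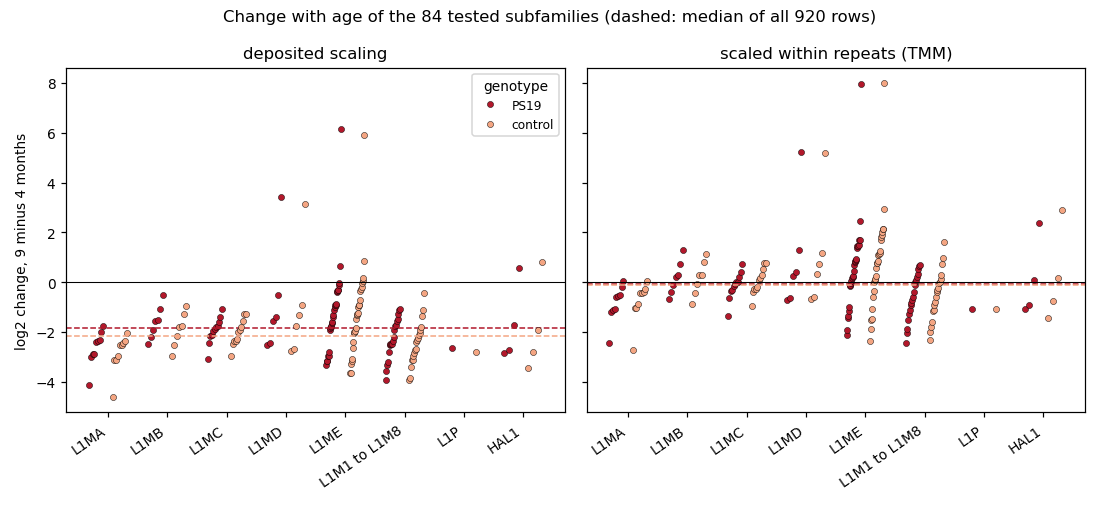
Log2 difference, 9 minus 4 months, of the 84 tested ancient L1 subfamilies (points) by name group and genotype, in the deposited scaling (left) and after TMM scaling (right); the dashed line is the median of all 920 tested subfamilies. L1MEi and L1MDb stand far above the rest, and L1MA subfamilies lie mostly at or below the dashed line on both sides.

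Besides L1MEc, the L1ME subfamilies called in neither genotype in the deposited scaling were L1MEg2, L1ME3, L1ME3A, L1ME3B, L1ME3D, L1ME4a, L1ME4c and L1ME5. Their log2 differences ran from -1.39 in L1ME5 to -0.04 in L1MEg2 in PS19, and from -0.90 in L1ME3 to 0.15 in L1MEg2 in control samples. L1ME3C, of the same L1ME3 series, was called lower: at 9 months it had 73.9 to 103 normalized reads in PS19 and 89.2 to 132 in control samples, against 365, 329, 347, 253 and 239 in PS19 and 312, 347, 359.5, 149 and 204 in control samples at 4 months. Its log2 difference was -1.75 (SE 0.29, adjusted p = 1.57e-05) in PS19 and -1.30 (SE 0.30, adjusted p = 0.000264) in control samples, but 0.04 and 0.77 after TMM scaling. At 4 months its sets lay closer together than those of L1MB3 or L1MA5A. After TMM scaling L1MEg2, L1ME3, L1ME3A, L1ME3B, L1ME3D, L1ME4a and L1ME4c were called higher in both genotypes, where 30 percent of all subfamilies were. Each of them then also had every 9-month sample above every 4-month sample, as did 22.4 percent of all. L1ME5 was not among them.

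The leading subfamilies of the other name groups, L1P aside, were called lower in the deposited scaling with values close to the median of all repeats or smaller. L1MA4 averaged 547 ± 110.4 normalized reads in PS19 and 475 ± 69.3 in control samples at 9 months (SD, n = 7 and 6), with a log2 difference against 4 months of -1.77 in PS19 (SE 0.40, adjusted p = 0.000253) and -2.02 in control samples (SE 0.41, adjusted p = 6.82e-05). L1MC4 averaged 605 ± 141 and 576 ± 78.0, with -1.89 (adjusted p = 0.000109) and -1.90 (adjusted p = 0.000101). L1MD averaged 789 ± 78.6 and 791 ± 67.7, with -1.38 (adjusted p = 0.00028) and -1.34 (adjusted p = 0.000454). These subfamilies were more even among the 9-month samples than among those of 4 months, where L1MD ran from 1006 to 3558.

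L1M5 averaged 1577 ± 250.5 normalized reads in PS19 and 1374 ± 184.3 in control samples at 9 months, with a log2 difference of -1.29 (SE 0.45, adjusted p = 0.00978) in PS19 and -1.35 (SE 0.46, adjusted p = 0.00866) in control samples. L1MB7 averaged 1184 ± 182 and 1029 ± 173, with -1.09 (adjusted p = 0.0316) and -1.26 (adjusted p = 0.0156). After TMM scaling both were positive, 0.51 and 0.74 for L1M5 and 0.72 and 0.82 for L1MB7. L1MA4, L1MD and HAL1 also turned positive in both genotypes, and L1MC4 in control samples. L1MC4 in PS19 was -0.085 and no longer called. After quantile normalization L1M5 and L1MB7 were positive in both genotypes and L1MD in control samples, while L1MA4 and L1MC4 stayed called lower in both.

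Among the HAL1 rows, HAL1 averaged 267 ± 41.0 normalized reads in PS19 and 237 ± 25.3 in control samples at 9 months, against 1074 ± 649 and 1289 ± 981 at 4 months. HAL1b, in contrast, had 142 to 207 in PS19 and 157 to 202 in control samples at 9 months, against 165, 201, 289.7, 61.3 and 30.1 in PS19 and 201, 345, 203, 18.2 and 42.5 in control samples at 4 months. HAL1b was not called with all samples, at 0.58 in PS19 (SE 0.53, adjusted p = 0.307) and 0.81 in control samples (SE 0.55, adjusted p = 0.171). It was called higher with the higher-numbered 4-month set, at 1.95 (adjusted p = 2.23e-06) and 2.65 (adjusted p = 7.13e-09). After TMM scaling of all samples HAL1b was called higher in both genotypes, where 30 percent of all subfamilies were. L1PB4, the tested L1P subfamily, was close to the limit of detection at 9 months, with 0.785 to 6.83 normalized reads in PS19 and 0 to 7.34 in control samples. It was called lower in both genotypes in the deposited scaling, as were 76.1 percent of all subfamilies.

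**Figure D4:**
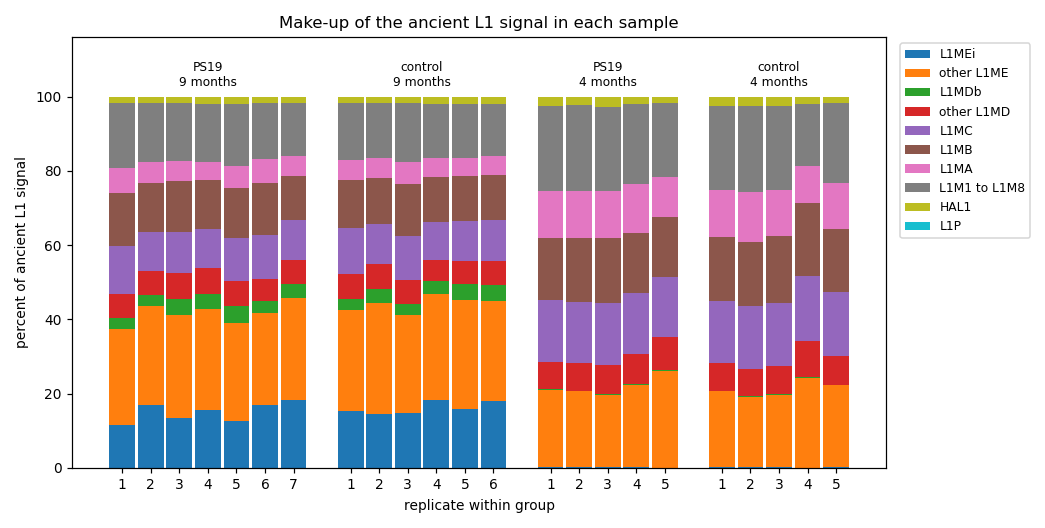
Share of ancient L1 signal (percent) held by each name group in each of the 23 samples, as stacked bars by group. L1ME takes 37.4% to 46.9% in the 9-month samples and 19.2% to 26.1% in the 4-month samples.

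The makeup of the ancient L1 signal accordingly differed between ages. L1ME held 42.8% ± 2.75 of it at 9 months and 21.6% ± 2.20 at 4 months, with no overlap. Without L1MEi it held 27.3% ± 1.42 and 21.5% ± 2.22, with ranges of 24.6% to 30.0% and 19.0% to 26.1% that overlapped. L1MA held 5.59% ± 0.60 at 9 months and 12.2% ± 1.05 at 4 months, L1MB 13.1% ± 0.79 and 17.3% ± 1.04, L1MC 11.2% ± 0.80 and 16.8% ± 0.34, and L1M with a digit 15.3% ± 0.95 and 21.7% ± 2.02. The ranges of L1MA, L1MB and L1MC did not overlap between ages either. Such shares sum to 100% in a sample, so the part taken by L1MEi and L1MDb lowers the others.

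Related repeats went different ways with age in the same fit. All 6 L1Md subfamilies were called lower in both genotypes, with medians of -2.56 in PS19 and -2.99 in control samples, as were 35 of 35 tested rodent Lx and other L1 subfamilies, with medians of -2.45 and -2.85, against 76.1 percent of all subfamilies called lower in both genotypes. Of 20 tested LINE subfamilies of families other than L1, such as L2 and CR1, 3 were called higher and 7 lower in each genotype, with medians of -0.10 and -0.41. The ancient L1 medians of -1.83 and -2.05 lay between these lists, and did so after TMM scaling too.

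PS19 and control samples of 9 months showed little difference in ancient L1 subfamilies. In the fit of all samples 0 of 84 were called in either direction, where 0.109 percent of all subfamilies were called higher and 0 percent lower. Past an unadjusted p of 0.05 was 1, against 28 of all 920 (1.19 and 3.04 percent). On the recovered reads edgeR and DESeq2 called 0, where 0.109 and 0.217 percent of all were called higher and 0 percent lower. The median log2 difference was 0.16 for the ancient L1 subfamilies and 0.19 for all, and 67 of 84 were positive, as were 690 of 920 of all. After TMM scaling the medians were -0.02 and 0.01. No subfamily had all PS19 samples above or below all control samples, where 0.978 and 0.326 percent of all did. For L1MEi the 95% confidence interval of the log2 difference was -1.05 to 1.04 in the fit of all samples and -0.23 to 0.22 in that of the 9-month samples alone.

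Because the 4-month samples were so variable, the 9-month samples were also fitted alone. In that fit L1MD2 was called higher in PS19, 1 of 84, where 3.04 percent of all subfamilies were called higher and 0.326 percent lower. L1MD2 had 452 to 652 normalized reads in PS19 (median 529.5) and 334 to 493.1 in control samples (median 395), so that the groups overlapped. The difference was 0.42 (SE 0.12, adjusted p = 0.0442), with an adjusted p of 0.9997 in the fit of all samples and 0.468 after TMM scaling. The call was lost on leaving out any of 10 samples in turn (PS19 replicates 1, 2, 3, 5 or 6, control replicates 1, 2, 4, 5 or 6), each of which left 0 calls. Leaving out PS19 replicate 4 or control replicate 3 gave 4 calls. The shares of all subfamilies called in these fits are not given here.

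L1MEj had the smallest p of the ancient L1 subfamilies in the fit of all samples, at low values. It had 5.70 to 16.9 normalized reads in PS19 (median 11.0), against 1.87, 1.004, 10.5, 8.53, 1.10 and 1.007 in the 6 control samples. These control values lay below all PS19 values in 4 samples and within their range in the other two. The log2 difference was 1.61 (SE 0.58, unadjusted p = 0.00954, adjusted p = 0.9997), and 1.61 (SE 0.47, adjusted p = 0.0555) in the 9-month samples alone. It was past the threshold after TMM scaling (1.65, adjusted p = 0.0317), where 1.52 percent of all subfamilies were called higher, with a term for the 4-month sets (adjusted p = 0.0262, 2.28 percent) and with only the lower-numbered 4-month set (adjusted p = 0.0161, 3.91 percent). It was not past it with TMM scaling of the 9-month samples alone (1.65, adjusted p = 0.0909) or with TMM scaling and the higher-numbered 4-month set (1.53, adjusted p = 0.0782).

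**Figure D5:**
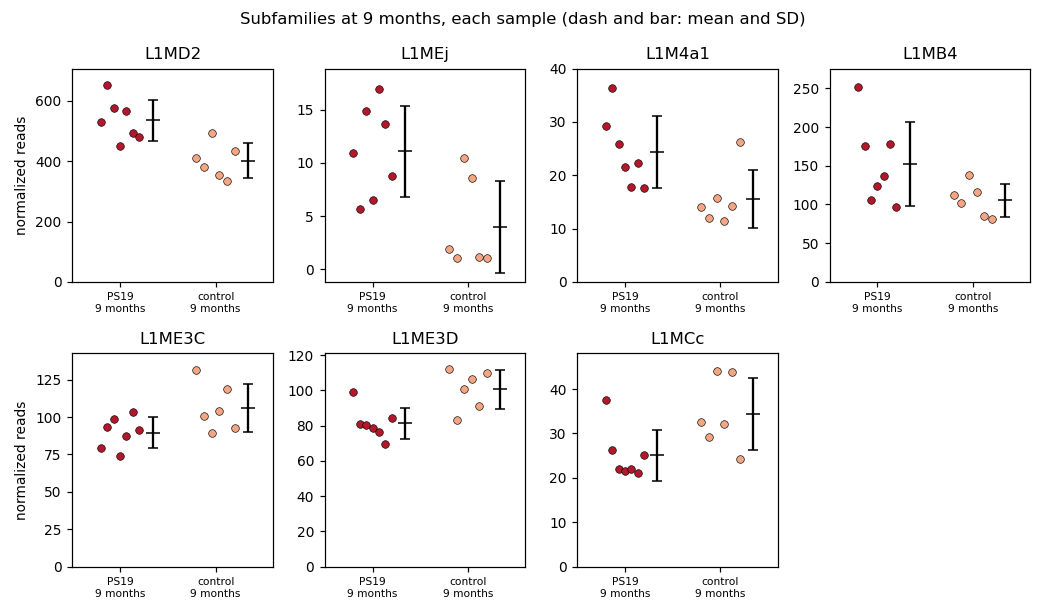
Normalized reads of 7 ancient L1 subfamilies in PS19 and control samples of 9 months (points), with the mean and SD as a dash and bar. PS19 and control samples overlap in each.

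The other subfamilies with the smallest p at 9 months were L1M4a1 and L1MB4 on the higher side and L1ME3C, L1MCc and L1ME3D on the lower, none of them past the threshold in the fit of all samples or of the 9-month samples alone. L1M4a1 had 17.5 to 36.4 normalized reads in PS19 (median 22.4) and 11.4 to 26.2 in control samples (median 14.1). L1MB4 had 96.5 to 252 in PS19 (median 136) and 80.6 to 137 in control samples (median 107). Both were higher by their medians with overlapping groups, at 0.63 (SE 0.48) for L1M4a1 and 0.48 (SE 0.43) for L1MB4.

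L1ME3D had 69.6 to 98.8 normalized reads in PS19 (median 80.1) and 83.3 to 112 in control samples (median 103), with a log2 difference of -0.30 (SE 0.40). After TMM scaling it was -0.49 (SE 0.12, adjusted p = 0.0344), the 1 ancient L1 subfamily then called lower, where 0.761 percent of all were. The call was lost with TMM scaling of the 9-month samples alone (-0.49, adjusted p = 0.0638) and with TMM scaling and the higher-numbered 4-month set (-0.48, adjusted p = 0.0689). L1MCc had 21.1 to 37.5 in PS19 (median 22.0) and 24.2 to 44.1 in control samples (median 32.4), with a difference of -0.43 (SE 0.55).

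Genotype at 9 months was also tied to the sample numbers: 5 of the 7 PS19 samples (replicates 1 to 5) had numbers below every control sample, and replicate 6 lay among the control numbers and replicate 7 above them. What the numbers stand for is not given in the sources used here. With only the last 2 of these PS19 samples set against the 6 control samples, 0 of 84 were called, where 0.652 percent of all subfamilies were called higher and 0 percent lower, and 6 were past an unadjusted p of 0.05, as were 74 of all 920 (7.14 and 8.04 percent). The differences were then 0.29 (adjusted p = 0.659) for L1MD2, 1.69 (adjusted p = 0.558) for L1MEj and -0.38 for L1ME3D.

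At 4 months 0 of 84 ancient L1 subfamilies were called between PS19 and control samples, where 0 percent of all subfamilies were called in either direction. None was past an unadjusted p of 0.05, as was none of all 920, and edgeR and DESeq2 called 0, where 0 percent of all were called. The median was 0.03 for the ancient L1 subfamilies and -0.08 for all. Within the sets it was 0.45 in the higher-numbered and -0.28 in the lower-numbered one, against 0.22 and -0.27 for all. The groups overlapped in every subfamily.

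L1ME3G had the smallest p on the higher side at 4 months. It had 2354, 2302, 2167, 1114 and 752 normalized reads in PS19 and 2463, 2856, 1971, 125 and 451 in control samples. The values overlapped in the lower-numbered set and did not in the other, which holds 2 samples of each genotype. The log2 difference was 0.73 (SE 0.58) with all samples and -0.08 (SE 0.30) in the lower-numbered set. In the higher-numbered set it was 1.94 (SE 0.47, adjusted p = 0.11), and 1.71 (SE 0.35, adjusted p = 0.0372) after TMM scaling, where 0.217 percent of all subfamilies were called higher. The 4-month values of L1M2a (0.43, SE 0.55) and L1ME5 (0.55, SE 0.77) on the higher side, and of L1M2c (-0.50, SE 0.91), L1MB2 (-0.22, SE 0.46) and L1MC1 (-0.22, SE 0.43) on the lower, were smaller than their SE.

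The PS19 difference was not shown to change with age. The difference of differences, 9 minus 4 months, was past the threshold in 0 of 84 subfamilies, where 0 percent of all were called in either direction. With edgeR and DESeq2 it was past it in 0, where 0 and 0.109 percent of all were called higher. L1MEj alone was past an unadjusted p of 0.05, against 8 of all 920. Its value was 1.82 (SE 0.88, adjusted p = 0.997) with a 95% confidence interval of 0.02 to 3.62. Next on the higher side were L1M4a1 and L1M3e (0.58, SE 0.62), and on the lower L1ME3C, L1M2a (-0.67, SE 0.73) and L1M8 (-0.74, SE 1.04). For L1MEi it was 0.25 with an interval of -1.34 to 1.83, so a difference of more than 2-fold between the ages in either direction lies within the error.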

How the data were processed

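Poly(A) RNA of 23 spinal cord samples was sequenced with a stranded kit, per the labels' protocols. The deposited values are a signal: reads per repeat subfamily, normalized by the authors by a size factor per sample. Trimmomatic, STAR, DESeq2 and mm10 are named, without versions, in the submitters' processing notes. Not given in the sources used here are the repeat counter, its annotation, and how strand and multi-mapping reads were handled, and near-identical subfamilies could divide reads. Every value (100 percent) was a whole number of reads within 0.1 percent of a read, which gave the reads behind it. All 23 sample columns were used and 0 left out.

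log2(value + 1) was fitted with limma 3.58.1 (R 4.3.3, empirical Bayes with trend) over 4 group means. The 920 of 1135 rows with a mean of at least 10 were tested, 215 were not, and p-values were adjusted over all 920 (Benjamini-Hochberg) and called under 0.05. Fold changes on this scale understate those of low subfamilies. Alternatives used the recovered reads in edgeR (version 4.0.16) and in DESeq2 (version 1.42.0), other scalings, pseudocounts and filters, and subsets of samples. The 4-month sets and the subset of 9-month PS19 samples were chosen after the data were seen. The limma and edgeR fits were also run on simulated data that gave every sample the spread of the 9-month samples. The 4-month samples were more variable, so that simulation cannot show how the fit of all samples performs on these data. Replicates were numbered in accession order, which pairs no samples.

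The subfamilies and lists were chosen with earlier results of these data known. Named were the subfamily with the highest mean in each name group, 3 subfamilies in each direction per comparison by smallest p, those past the threshold in 9-month samples alone, those higher in all 9-month samples, and the 3 lower in all 9-month samples with the largest gap at a mean of at least 50. Those outside this rule (L1P5, HAL1b, HAL1ME and others in lists) were named after their values were seen. The table pairs names with family and class, and sequences are not printed here.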

Additional observations from a re-analysis of the deposited data

Results flagged for a closer look

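In 6 of 120 groups examined, 1 sample lay far from the others of its group, by a rule that marks about 1 in 20 groups by chance when groups are independent. The groups here share samples, and PS19 replicate 1 of 9 months was the high sample in 4 of the 6. It had 20.1 normalized reads of L1MA10, where the other PS19 samples had 2.19 to 7.06, and 74.1 of L1MA5A, where they had 45.6 to 51.5. It had 37.5 of L1MCc, against 21.1 to 26.2 in the others, and 452.7 of L1ME3G, against 125 to 237. Control samples of 9 months gave the other two: replicate 6 with 26.2 of L1M4a1, where the others had 11.4 to 15.7, and replicate 3 with 284 of L1ME3G, where the others had 134 to 179. PS19 replicate 1 also had the highest repeat total of its group, 539759 normalized reads, and its part in these values was not tested.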

How the results depend on the processing

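No paired analysis was possible because the labels give no replicate numbers. For 9 against 4 months in PS19 (2 higher, 70 lower), TMM scaling gave 26 and 28 (32.3 and 28.2 percent of all). Quantile normalization gave 16 and 39 (24.5 and 41.4 percent) and the higher-numbered 4-month set 9 and 44 (14 and 50.2 percent). That set with TMM gave 24 and 15 (27.8 and 15.5 percent) and a set term 4 higher (10.7 percent). In control samples (2 and 70) TMM gave 29 and 24 (32.7 and 30 percent) and quantile normalization 18 and 39 (25.3 and 42.5 percent). The higher-numbered set gave 13 and 37 (16.3 and 50.2 percent) and, with TMM, 30 and 4 (27.9 and 20.1 percent). A set term gave 4 higher (9.35 percent). Non-overlap above and below (2 and 11) became 20 and 2 under TMM (22.4 and 6.3 percent of all). It became 5 above with the higher-numbered set (10.9 percent of all) and 79 below with the lower-numbered set (86.1 percent). TMM with the higher-numbered set gave 24 and 2 (24.1 and 10.8 percent of all). Quantile normalization gave 10 above, for which the share of all is not given here.

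At 9 months the 0 higher calls in PS19 became 1 under TMM and in 9-month samples alone (1.52 and 3.04 percent of all). They also became 1 with a set term and with the lower-numbered set (2.28 and 3.91 percent). With sample weights there were 4 (11.4 percent of all), and the 0 lower became 1 under TMM (0.761 percent). At 4 months there was 1 higher with the higher-numbered set and TMM (0.217 percent of all). With sample weights, whose estimation gave a convergence warning, 30 were called lower (37.3 percent of all). With these weights 35 interactions were called higher (44.9 percent of all). The cause was not tested. Summed signal under TMM was 45391 in PS19 and 47808 in control samples at 9 months and 29193 in PS19 at 4 months. With the higher-numbered set it was 31905 in PS19 and 24021 in control samples at 4 months, and the PS19 share 5.05%.

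Leaving out each sample gave, between ages, 2 to 2 higher and 63 to 73 lower in PS19, and 2 to 4 and 62 to 73 in control samples (4 without 4-month control replicate 2). Non-overlap gave 2 to 2 above and 11 to 26 below (26 without 4-month control replicate 4, 20 without 9-month PS19 replicate 1). The genotype comparisons and the interaction gave 0 to 0, and 9-month samples alone 0 to 4 higher and 0 to 0 lower. The shares of all subfamilies on leaving out a sample are not given here. These ranges are therefore no result about the ancient L1 subfamilies in particular. With no sample left out, 27.1 percent of all lay lower in every 9-month sample. Sums ran from 26081 to 27692 and 24228 to 25459 in PS19 and control samples at 9 months, and from 60278 to 81656 and 61696 to 94254 at 4 months. Shares ran from 5.97% to 6.07%, 6.14% to 6.23%, 5.42% to 5.67% and 4.88% to 5.51% in the same order.

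Of the values of named subfamilies, 736 kept direction and call, 40 reversed, 23 gained and 22 lost a call under alternatives other than leaving out a sample. Between ages, TMM reversed HAL1 (0.093 in PS19 and 0.16 in control samples), L1M5 (0.51 and 0.74), L1MA4 (0.033 and 0.060), L1MB7 (0.72 and 0.82), L1MD (0.42 and 0.75), L1MC4 in control samples (0.18) and L1ME3C in PS19 (0.040). L1ME3C in control samples, which the naming rule did not cover between ages, also turned positive under TMM, as given above. TMM with the higher-numbered set reversed HAL1 (0.33 and 0.50), L1M5 (0.59 and 0.95), L1MB7 (0.89 and 1.09), L1MD (0.060 and 0.32) and L1MC4 in control samples (0.073). Quantile normalization reversed L1M5 (0.10 and 0.24), L1MB7 (0.14 and 0.15) and L1MD in control samples (0.098). The higher-numbered set alone reversed L1MB7 (0.058 and 0.31) and L1M5 in control samples (0.17). L1MEc reversed with sample weights (-0.11 and -0.19) and with the lower-numbered set (-0.17 and -0.24).

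At 4 months the lower-numbered set reversed L1M2a (-0.055), L1ME3G (-0.080) and L1ME5 (-0.095), and leaving out control replicate 4 gave -0.12, -0.0015 and -0.046, the lowest on leaving out a sample, with highest values of 0.85, 1.13 and 1.10. L1ME5 was -0.033 with edgeR and DESeq2. Leaving out PS19 replicate 5 reversed L1M2c (0.41), L1MB2 (0.23) and L1MC1 (0.20), as did leaving out control replicate 2 (0.016, 0.094 and 0.086), and their lowest values on leaving out a sample were -1.35, -0.59 and -0.53. The interaction of L1M8 reversed with sample weights (0.080) and edgeR (0.0037).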

Other observations

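Across the 84 tested subfamilies, those with more signal were lower by less at 9 months: Spearman's rho between the mean over all samples and the log2 difference was 0.43 in PS19 and 0.42 in control samples. The mean includes the 9-month values, so a subfamily that was lower by less has a higher mean for that reason too. These points also share libraries, depth and the scale of log2(value + 1), which shrinks changes of low subfamilies. The values are therefore a description only.

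The ancient L1 signal was held by fewer subfamilies at 9 months. The 10 with most signal held 52.5% of it in PS19 and 54.6% in control samples at 9 months, against 40.3% in PS19 and 40.1% in control samples at 4 months. L1MEc ranked 3rd in PS19 and 2nd in control samples at 9 months, against 21st and 20th at 4 months, and L1MDb 7th in both against 66th in both.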
